A study of Mus musculus with 26 samples.

Results

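The tendon regulators Tnmd, Scx and Mkx, the tenascins Tnc, Tnn and Tnxb, and the related matrix proteins periostin (Postn) and Tgfbi were followed through a mouse model of osteoarthritis. These 8 genes were chosen by symbol. They have 13 probe sets annotated to 1 of the symbols alone, out of 45101 on the array (8 of 18194 genes with a probe set of their own), and the brightest probe set of each gene, by its mean over all 26 arrays, stands for the gene. RNA came from the medial compartment of the knee of male C57BL/6 mice, which held articular cartilage, bone beneath it, meniscus, ligaments, synovium and joint capsule. Each array was hybridised with RNA pooled from 3 mice. Mice at time 0 had no operation and were 12 weeks old (n = 3 pools). The others had sham surgery or destabilization of the medial meniscus (DMM, in which the ligament that anchors the meniscus is cut) at that age and were collected 2, 4, 8 or 16 weeks later, when they were 14, 16, 20 and 28 weeks old. There were 3 pools in every group except DMM at 2 weeks, which had 2. The mice carried no transgene. All values are log2 signals as deposited, so that a difference of 1 is a doubling of the signal.

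As background, tendon and ligament cells are set apart by a small number of regulators. Scx (scleraxis) and Mkx (mohawk) are transcription factors of the tendon lineage, and Tnmd (tenomodulin) is a membrane glycoprotein of mature tendon and ligament cells whose expression depends on Scx. Tenascins are large glycoproteins around cells. Tnc is made during development, loading and wound repair, Tnn (tenascin-W) is found at periosteum and remodelling sites, and Tnxb organises collagen fibrils in loose connective tissue. Postn and Tgfbi are paralogous fasciclin-domain proteins that bind collagen and integrins and are induced by TGF beta. In a bulk sample of mixed joint tissue, fewer cells of a type and less RNA per cell cannot be told apart.

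Positions are those of the GRCm38.p6 assembly. Tnmd spans 133851008-133865577 of chromosome X, Postn 54359267-54391041 of chromosome 3, Tnc 63959785-64047015 of chromosome 4, Tnn 160085029-160153692 of chromosome 1, Tnxb 34660453-34719815 of chromosome 17 and Tgfbi 56609586-56639359 of chromosome 13. Scx occupies 76457411-76459468 of chromosome 15, which is inside the span of Bop1 (76452988-76477249), a ribosome biogenesis gene. RefSeq sequence before the transcript start was at hand for 6 of the 8 genes. 3 of these windows are shown, because Tnmd and Postn had the largest differences between groups below and a Tnc window held the most E-boxes. Each holds the 250 bases before a start, 5′ to 3′ on the strand of the gene. Capitals mark matches to the E-box CANNTG, the general site of basic helix-loop-helix factors such as Scx, and to the TATA box TATAAA.
Tnmd, chrX:133850758-133851007, plus strand: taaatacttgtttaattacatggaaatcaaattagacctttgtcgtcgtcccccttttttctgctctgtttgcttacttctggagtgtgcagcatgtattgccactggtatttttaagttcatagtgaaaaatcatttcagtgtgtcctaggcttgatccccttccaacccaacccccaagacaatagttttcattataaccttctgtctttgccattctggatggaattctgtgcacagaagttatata
Postn, the downstream of its 2 listed starts, chr3:54360857-54361106, plus strand: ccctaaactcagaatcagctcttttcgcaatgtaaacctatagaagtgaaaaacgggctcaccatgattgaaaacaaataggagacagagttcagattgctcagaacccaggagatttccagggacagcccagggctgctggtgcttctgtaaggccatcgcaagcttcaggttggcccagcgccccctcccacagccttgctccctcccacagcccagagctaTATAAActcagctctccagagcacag
Tnc, the upstream of its 2 listed starts, chr4:64047016-64047265, minus strand: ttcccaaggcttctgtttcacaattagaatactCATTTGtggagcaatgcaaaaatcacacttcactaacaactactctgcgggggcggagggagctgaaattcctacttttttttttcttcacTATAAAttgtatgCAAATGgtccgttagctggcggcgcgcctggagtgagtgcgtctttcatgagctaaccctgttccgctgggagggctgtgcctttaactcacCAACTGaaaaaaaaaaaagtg
The Tnc window held 3 E-boxes, and 12.2% of the 32841 mouse windows of this length held at least as many. The window of the other Tnc start, which overlaps it, held 2 (31.8% of windows hold as many). The Tnmd and Postn windows held none, where 66.2% of all windows held at least 1. A TATA box lay 26 bases before the Postn start and another was in the Tnc window, against 12.4% of all windows. The SMAD box CAGAC and the AP-1 site TGANTCA were in none of the 3 windows shown, against 42.2% and 6.75% of all windows. The windows of the other Tnc start and of the upstream Postn start each held 1 SMAD box. Both strands were searched. A match of letters is not a binding site, and its lack says only that these letters are not in the window.

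Levels are not compared between genes, because probe sets differ in affinity. Mkx, at a mean of 6.82 over all arrays, lay below the brightness filter of 7.93 (the median over probe sets), so it was outside the main test and its adjusted p comes from the same limma fit of all 45101 probe sets. Tnn, at 7.93, lay just above the filter and passed it only through its high pools. Its group means were above the filter in DMM at 2 and 4 weeks (9.33 and 8.76) and sham at 2 weeks (8.00), and below it at time 0 (7.64) and in the other groups. The calls of Tnn are thus not independent of the filter, and its values in the fit of all probe sets stand beside them. The other 6 genes were clearly above the filter. Each of the 7 tested genes was called where limma's adjusted p, over 22550 probe sets, was under 0.05.

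**Figure D1:**
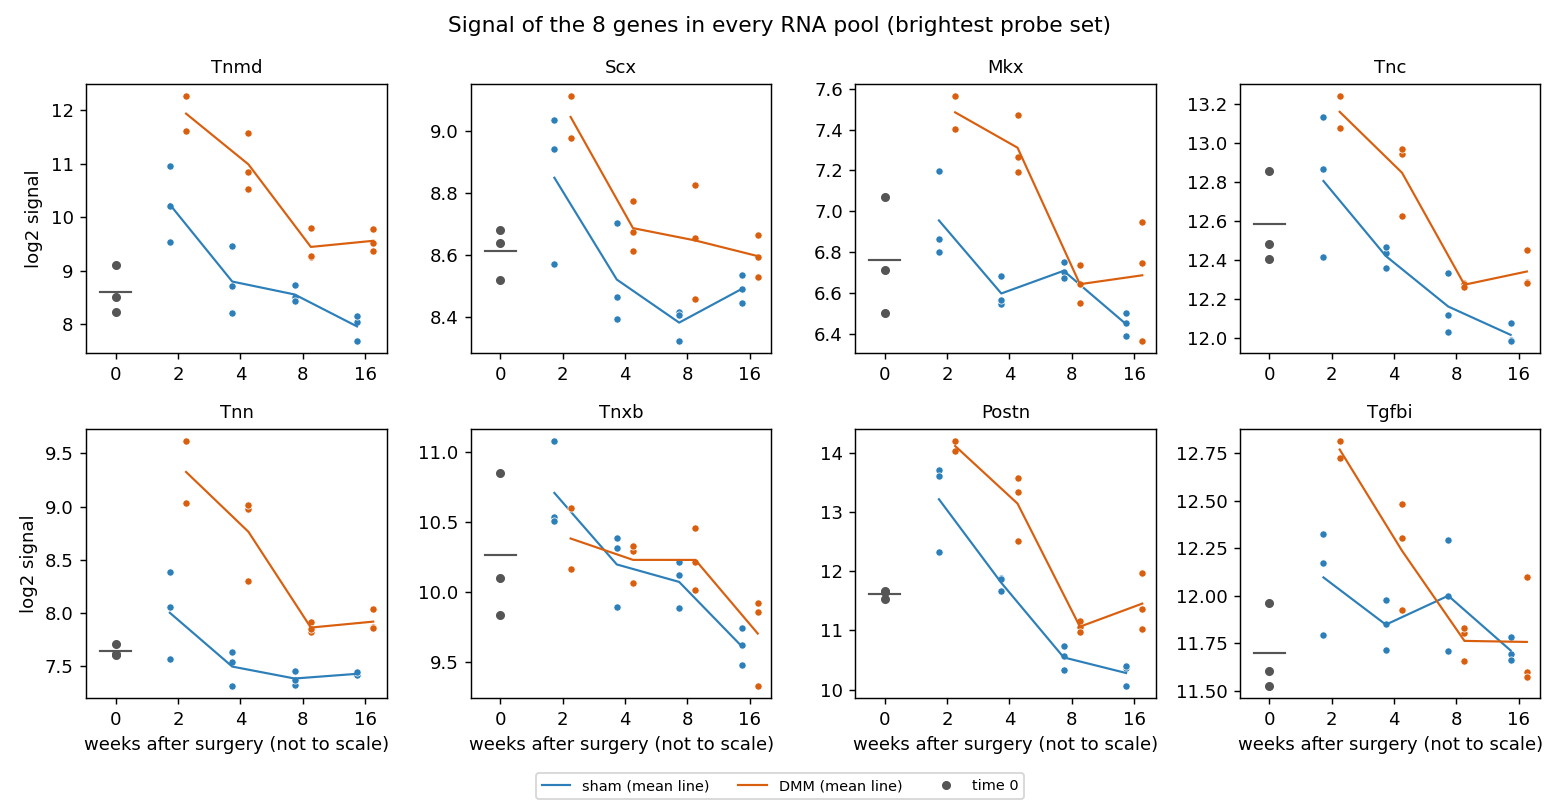
Log2 signal of the brightest probe set of each gene (y axis, separate scale per panel) against weeks after surgery (x axis, time points equally spaced). Each point is 1 RNA pool, grey at time 0, blue for sham and orange for DMM, and lines join group means. In every panel but Tnxb the highest point is a DMM pool at 2 weeks.

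Tnmd had the largest DMM differences of the 8 genes. At 2 weeks the DMM pools read 11.61 and 12.27 and the sham pools 9.54, 10.96 and 10.21. At 4 weeks the DMM pools read 10.54, 10.86 and 11.57 against 8.71, 8.20 and 9.47 in sham. Every DMM pool was above every sham pool at both times. The 2-week rise was 1.70 ± 0.38 (SE; adjusted p = 0.0277), or 3.26-fold. The 4-week rise was 2.20 ± 0.34 (adjusted p = 0.000686), or 4.58-fold. At 8 weeks the DMM pools read 9.26, 9.79 and 9.27 and the sham pools 8.72, 8.50 and 8.44. At 16 weeks DMM read 9.78, 9.37 and 9.52 and sham 7.68, 8.03 and 8.15. The pools were again apart, but neither difference passed, with 0.89 ± 0.34 (adjusted p = 0.308) for the former week and 1.60 ± 0.34 (adjusted p = 0.0887) for the latter. Averaged over the 4 time points, Tnmd was higher in DMM by 1.60 ± 0.17 (adjusted p = 1.44e-05, 11 against 12 pools).

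Both tendon transcription factors had smaller differences than Tnmd. The brightest Scx probe set differed between DMM and sham by 0.11 to 0.26 at the 4 times, with adjusted p from 0.269 to 0.916. Its average difference was 0.18 ± 0.05 (adjusted p = 0.0234), 1.14-fold, and was not called without DMM 2-week replicate 3. The other Scx probe set was dimmer (mean 6.97, under the filter) but gave wider gaps. It read 8.22 and 8.19 in DMM at 2 weeks against 6.77, 7.47 and 7.21 in sham, and 7.15, 7.94 and 7.78 at 4 weeks against 6.48, 6.42 and 6.78. The groups were apart both times, and the differences of 1.06 ± 0.20 and 1.06 ± 0.18 had adjusted p of 0.0182 and 0.0013 in the fit of all probe sets. At 8 weeks the dimmer probe set gave 0.11 ± 0.18 with overlapping pools, and at 16 weeks 0.70 ± 0.18 with pools apart (adjusted p = 0.308). Its average over the 4 times was 0.73 ± 0.09 (adjusted p = 4.28e-05). The probe sets disagree in size though they correlate across pools (r = 0.71, 26 arrays), and the brighter one carries the array maker's suffix for probes that may cross-hybridise. Mkx, on chromosome 18, read 7.57 and 7.40 in DMM at 2 weeks against 6.80, 7.20 and 6.87 in sham, and 7.19, 7.27 and 7.47 at 4 weeks against 6.55, 6.56 and 6.68. Every DMM pool was above every sham pool both times. The 4-week difference of 0.71 ± 0.14 passed in the fit of all probe sets (adjusted p = 0.00236) and the 2-week difference of 0.53 ± 0.15 did not (adjusted p = 0.0973). At 8 and 16 weeks the Mkx pools overlapped, and the average was 0.35 ± 0.07 (adjusted p = 0.00216). The study had picked the Mkx probe set on these arrays for its DMM time course, so its direction is not independent evidence.

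**Figure D2:**
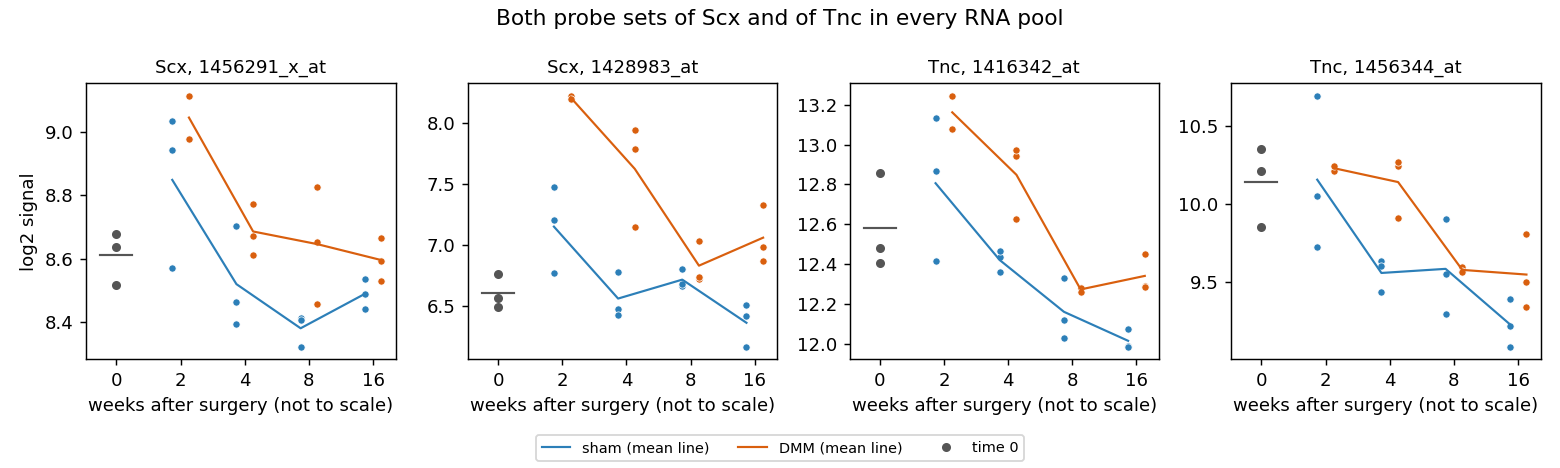
Log2 signal (y axis) of both probe sets of Scx and of Tnc against weeks after surgery (x axis, equally spaced), with each point 1 RNA pool and lines joining group means. The dimmer Scx probe set separates DMM from sham at 2 and 4 weeks, whereas the brighter one overlaps at both times.

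Among the tenascins, Tnn had the largest DMM differences. Its DMM pools read 9.03 and 9.62 at 2 weeks against 7.56, 8.39 and 8.05 in sham, and 8.30, 8.97 and 9.01 at 4 weeks against 7.31, 7.63 and 7.54. The groups did not overlap. The Tnn rise was 1.32 ± 0.20 (adjusted p = 0.0118) in the earlier week and 1.27 ± 0.18 (adjusted p = 0.000509) in the later. In the fit of all probe sets, which does not depend on the filter, the adjusted p were 0.0127 and 0.000655. By 8 and 16 weeks the pools were still apart, but the differences of 0.48 ± 0.18 (adjusted p = 0.299) and 0.49 ± 0.18 (adjusted p = 0.498) did not pass. Tnc, the bright tenascin of wound repair, read 12.63, 12.94 and 12.97 in DMM at 4 weeks against 12.36, 12.44 and 12.46 in sham. All DMM pools were above all sham pools, by 0.43 ± 0.14 (adjusted p = 0.035), and the second Tnc probe set gave 0.58 ± 0.19 (adjusted p = 0.0371). The Tnc call was lost without any 1 of the 3 sham pools, without DMM replicate 2 or 3, and with the muscle covariate. Its second probe set did not pass for the average of the 4 times (adjusted p = 0.0963), where the brighter one gave 0.31 ± 0.07 (adjusted p = 0.00543). Tnxb was not called. Its pools overlapped between DMM and sham at every time, the differences ran from -0.33 to 0.16, and the average was -0.012 ± 0.11 (adjusted p = 0.956).

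Postn rose at 4 weeks. It read 12.50, 13.34 and 13.57 in DMM and 11.89, 11.66 and 11.86 in sham, a difference of 1.34 ± 0.29 (adjusted p = 0.00393), or 2.53-fold. At 2 weeks DMM read 14.02 and 14.20 and sham 12.33, 13.71 and 13.60. All DMM pools were above all sham pools, but the difference of 0.90 ± 0.32 did not pass (adjusted p = 0.128). At 16 weeks DMM read 11.97, 11.36 and 11.03 and sham 10.37, 10.41 and 10.07, a difference of 1.17 ± 0.29 (adjusted p = 0.153). The average over the 4 times was 0.98 ± 0.15 (adjusted p = 0.00015). Tgfbi, its paralogue, read 12.72 and 12.81 in DMM at 2 weeks against 11.79, 12.32 and 12.17 in sham. The pools were apart, by 0.67 ± 0.19, which did not pass (adjusted p = 0.0599). Its 4-week pools overlapped (0.39 ± 0.17, adjusted p = 0.108), as did those of 8 weeks (-0.24 ± 0.17, adjusted p = 0.557). The brightest Tgfbi probe set, like the brighter one of Scx, carries the suffix for probes that may cross-hybridise, and the dimmest does not. The other Tgfbi probe sets correlated with the brightest at r of 0.975 or more. Against sham the dimmest of them passed at 2 weeks (0.71 ± 0.15, adjusted p = 0.0264) and on average (0.28 ± 0.07, adjusted p = 0.00965), where the brightest gave 0.22 ± 0.09 (adjusted p = 0.0924).

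**Figure D3:**
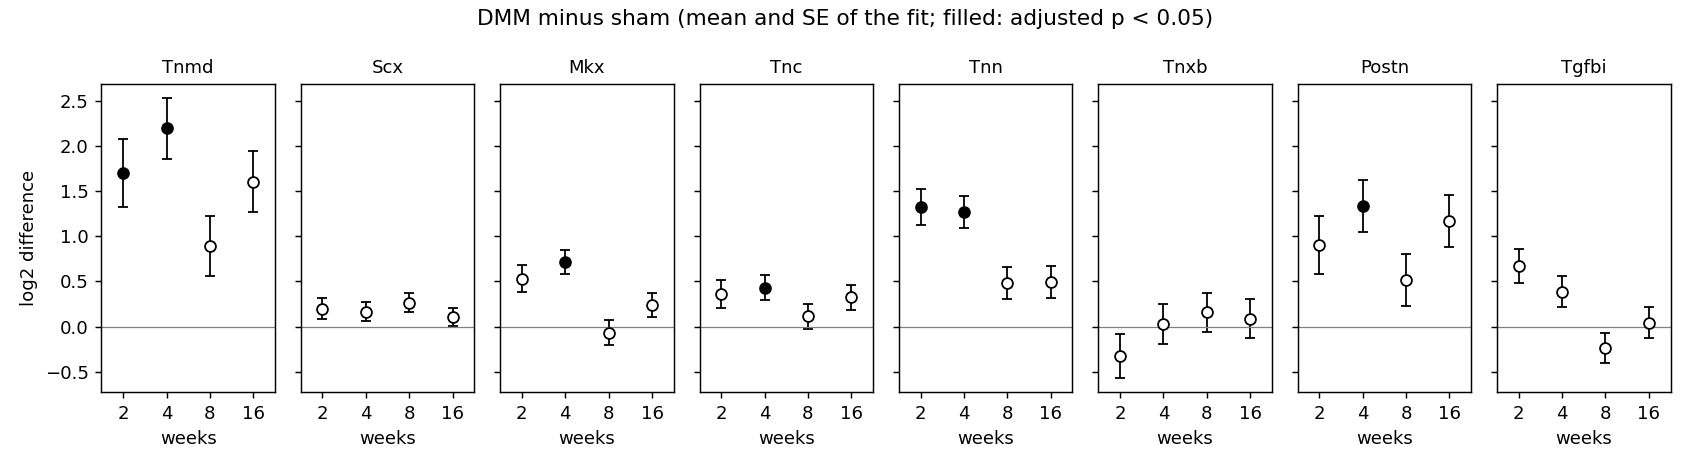
Log2 difference of DMM minus sham (y axis) at 2, 4, 8 and 16 weeks (x axis) for each gene, with the SE of the limma fit as error bars. Filled points have an adjusted p under 0.05 (for Mkx in the fit of all probe sets), and they occur at 2 and 4 weeks only.

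Counted together with Tnn, 2 of the 7 tested genes were higher in DMM at 2 weeks, where 1.62% of the probe sets tested were called higher, 0.807% lower and 2.43% in all. At 4 weeks 4 of 7 were higher, against 12.4% called higher, 6.67% lower and 19.0% in all. Leaving Tnn aside, these were 1 and 3 of 6 genes. Without 1 pool at a time the number of all probe sets called ran from 0 to 1762 at 2 weeks (548 with every pool) and from 1575 to 5536 at 4 weeks (4295). At 8 weeks none of the 7 was called in limma, when 0.00443% of all probe sets were. An unadjusted p under 0.05 was reached by 3 of the 7, and by 2733 of the 22550 probe sets tested. Default and gene-by-gene array weights called 3 and 1, together with 10.7% and 3.69% of all probe sets. The 3 were Tnmd, Scx and Tnn, and the 1 was Tnn, whose calls are not independent of the filter. The pools' numbers were assigned at random, yet at 8 weeks same-numbered DMM and sham pools deviated together (r from 0.325 to 0.556, beside -0.19 to 0.33 at the other times). With the number as a block and only those 2 groups fitted, Tnmd (adjusted p = 0.0283) and Tnn (adjusted p = 0.0389) passed, with 0.86% of all probe sets. Leaving Tnn aside this was Tnmd alone, and no blocked value from the fit of all probe sets is given for Tnn. At 16 weeks none was called, against 0.0621% of all probe sets. There 4 had an unadjusted p under 0.05, beside 1666 of the 22550 probe sets tested. Array weights called 3 by default and 2 gene by gene, with 1.29% and 0.9% of all probe sets. Over the average of the 4 times 5 of 7 were higher, with 11.0% of all probe sets called higher, 5.76% lower and 16.8% in all. Tnn was among these 5 and was also called in the fit of all probe sets. None of the 7 genes was called lower in any of these comparisons. Of all 8 genes, DMM pools lay wholly above sham pools for 5, 5, 4 and 4 at the successive times, beside 13.1%, 19.3%, 6.49% and 10.8% of the probe sets tested. The median DMM difference over the 8 genes was 0.60, 0.57, 0.21 and 0.28 at the 4 times, beside -0.025, -0.015, 0.011 and 0.0013 over all probe sets tested.

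Whether the DMM difference itself changed with time was tested. None of the 7 tested genes was called for 4 weeks minus 8 weeks in limma, where 1.58% of all probe sets were called. Tnn gave 0.79 (adjusted p = 0.0732) and Tnmd 1.30 (adjusted p = 0.0994). An unadjusted p under 0.05 was common here, in 3 of the 7 and in 6295 of the 22550 probe sets tested. Mkx gave 0.78 ± 0.19 without the brightness filter (adjusted p = 0.0627), where Tnn had an adjusted p of 0.0994. Each way of weighting arrays called 5 of the 7, with 41.4% and 31.2% of all probe sets, and the muscle covariate called 2, with 14.4%. Tnn was among the genes called each time. Mkx passed under these 3 settings too. Without 1 pool at a time, 0 to 3637 probe sets were called (357 with every pool). For 4 weeks minus 2 weeks and 4 weeks minus 16 weeks no probe set at all passed in limma (0%). In these, 0 and 1 of the 7 had an unadjusted p under 0.05, beside 1110 and 2871 of the 22550 probe sets tested. For 4 weeks minus 16 weeks default and gene-by-gene array weights called 3 and 1, with 17.6% and 8.78% of all probe sets.

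The 2-week DMM calls depended on single pools. Tnmd was not called without sham replicate 1 or without either DMM pool, and Tnn was not called without sham replicate 1 or DMM replicate 3. Without sham replicate 3, 4 genes were called, with 7.81% of all probe sets. Without sham replicate 1 none was, with 0% of all probe sets. Sham 2-week replicates 1 and 3 had the lowest mean correlation with their own group of all 26 pools (0.965 and 0.967, against 0.977 or more in the rest). The 3 sham pools' mean log2 over 12 skeletal muscle genes ran from 9.60 to 13.33. With this mean of every pool as a covariate, Tnmd and Tnn stayed called at 2 weeks and Tgfbi passed too. In that fit 7.59% of all probe sets were called, against 2.43% without the covariate. What lay behind the spread was not tested. At 4 weeks the muscle mean of every DMM pool was below every sham pool (11.06 to 12.07 against 12.44 to 12.51). The same held at 8 weeks (11.19 to 12.19 against 12.52 to 13.31), and the pools overlapped at 2 and 16 weeks. None of these 12 muscle genes was called in any comparison. Their median DMM difference was 0.60, -0.79, -1.23 and 0.72 at the successive times. At 4 weeks Tnmd, Tnn, Postn and Mkx were called whichever of the 6 compared pools was left out.

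The sham joints were set against time 0 to follow the genes without DMM. Tnmd and Postn rose 2 weeks after sham surgery. Postn read 12.33, 13.71 and 13.60 against 11.65, 11.67 and 11.52 at time 0, and every sham pool was above them. It was higher by 1.60 ± 0.29 (adjusted p = 0.0121) and Tnmd by 1.63 ± 0.34 (adjusted p = 0.0219). These were 2 of 7, where 1.25% of all probe sets were called higher and 1.65% called. Neither was called without time 0 replicate 2 or 3 or sham replicate 2 or 3. Without sham replicate 1, 6 genes were called, with 14.5% of all probe sets. At 4 weeks none was called in limma (background 1.21%), and both array weights called 0. An unadjusted p under 0.05 was found for 0 genes, beside 3485 of the 22550 probe sets tested. At 8 weeks none was called either (background 0.891%). Postn read 10.57, 10.73 and 10.33 there, below every time 0 pool (-1.07 ± 0.29, adjusted p = 0.0841). At that time 3 genes had an unadjusted p under 0.05, beside 3588 of the 22550 probe sets tested. Default and gene-by-gene array weights called 5 and 3, with 18.5% and 11.4% of all probe sets.

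By 16 weeks the sham level of Postn was 10.28 (SD 0.19, n = 3) against 11.61 (SD 0.08, n = 3) at time 0, lower by 1.33 on the log2 scale (adjusted p = 0.00778). Tnc was lower too, at 11.99, 12.07 and 11.98 against 12.48, 12.41 and 12.86 (-0.57 ± 0.14, adjusted p = 0.0172). These were 2 of 7, where 4.47% of probe sets were called lower and 5.78% called. Without time 0 replicate 3, or sham replicate 1 or 3, Postn alone was called, with 2.95%, 2.02% and 2.52% of all probe sets. Tnc was a gene the study selected in its sham time course, as was Tnxb, so their direction there is not independent evidence. Tnxb was at 9.48, 9.62 and 9.74, below every time 0 pool (-0.65 ± 0.22, adjusted p = 0.0909). Tgfbi differed by 0.015 ± 0.17 (adjusted p = 0.967).

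**Figure D4:**
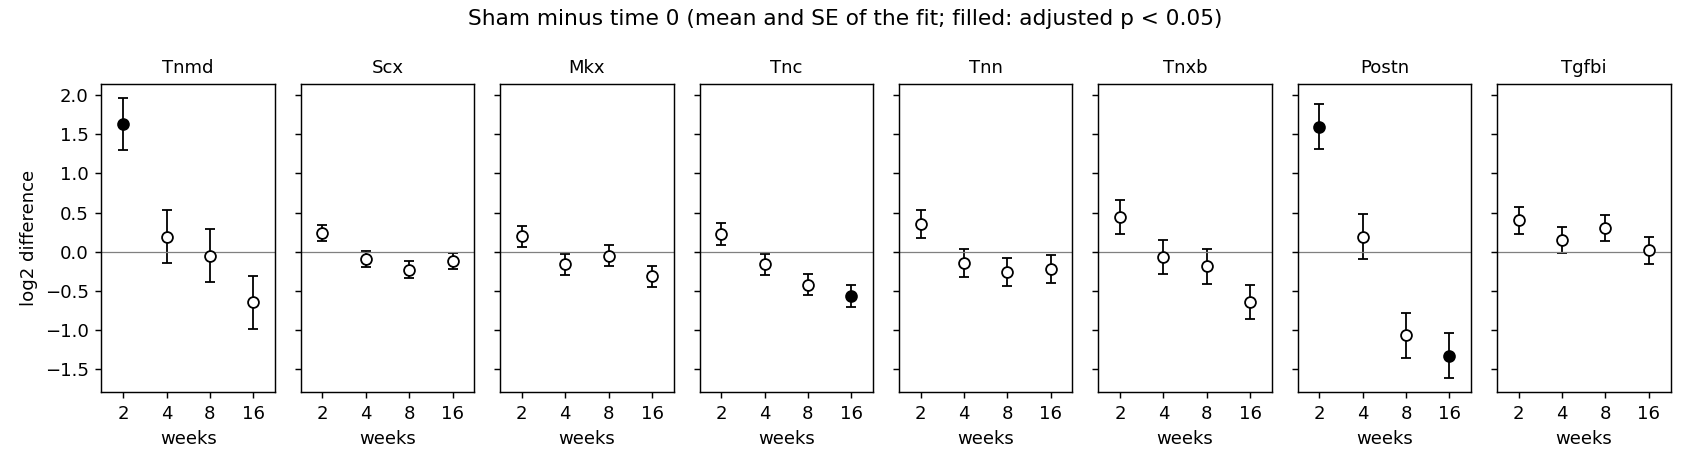
Log2 difference of sham minus time 0 (y axis) at 2, 4, 8 and 16 weeks (x axis) for each gene, with the SE of the limma fit as error bars and filled points for an adjusted p under 0.05. Postn goes from 1.60 at 2 weeks to -1.33 at 16 weeks, the widest course of the 8 genes.

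Between sham joints at 2 and 16 weeks 6 of the 7 were lower at 16 weeks, where 15.3% of all probe sets were called lower and 30.6% called. Postn fell by 2.93 ± 0.29 (adjusted p = 5.61e-06), 7.64-fold, and Tnmd fell by 2.28 ± 0.34 (adjusted p = 8.8e-05). Tnxb fell by 1.09 ± 0.22 and Tnc by 0.79 ± 0.14, while Tnn fell by 0.57 ± 0.18 and Scx by 0.36 ± 0.10. Tnn, counted among the 6, was also called in the fit of all probe sets. Tgfbi did not pass (adjusted p = 0.0877). Mkx fell by 0.51 ± 0.14 in the fit of all probe sets (adjusted p = 0.0126), and was not called without sham 2-week replicate 2 or sham 16-week replicate 3. Tnmd, Tnc, Tnxb and Postn were called whichever of the 6 pools was left out, and Scx and Tnn were lost without sham 2-week replicate 2 or 3 or sham 16-week replicate 1.

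Against time 0, which is the control for sham as well so that these comparisons share pools, DMM joints at 2 weeks had 6 of the 7 genes higher (14.3% of all probe sets higher, 29.5% called). Tnmd was higher by 3.34 ± 0.38, Postn by 2.50 ± 0.32, Tnn by 1.68 ± 0.20 and Tgfbi by 1.07 ± 0.19. Tnc (0.58 ± 0.15) and Scx (0.43 ± 0.12) passed as well, though not without DMM replicate 3. The second Tnc probe set gave 0.09 ± 0.21 with overlapping pools (adjusted p = 0.785), and Tnc was not called on the mean of its probe sets. The dimmer Scx probe set gave 1.60 ± 0.20 (adjusted p = 2.56e-05) and Mkx 0.72 ± 0.15 (adjusted p = 0.00207), both in the fit of all probe sets. Tnxb did not pass (0.12 ± 0.25, adjusted p = 0.752). At 4 weeks Tnmd (2.39 ± 0.34), Postn (1.53 ± 0.29) and Tnn (1.12 ± 0.18) were higher, 3 of 7, against 6.40% higher and 8.18% called. Tnn, counted at both 2 and 4 weeks, was called both times in the fit of all probe sets as well. Mkx gave 0.55 ± 0.14 in the fit of all probe sets (adjusted p = 0.022), and was not called without time 0 replicate 2 or 3 or DMM replicate 2 or 3. At 8 and 16 weeks none was called in limma (background 0.741% and 1.73%). At each, 2 had an unadjusted p under 0.05, beside 2713 and 2980 of the 22550 probe sets tested. Both array weights called 2 at 8 weeks, with 8.45% and 7.34% of all probe sets. At 16 weeks both called 1, with 8.97% and 7.72%. Postn at 8 weeks read 11.06, 10.97 and 11.16 after DMM, below every time 0 pool and above every sham pool of that week (-0.55 ± 0.29 against time 0, adjusted p = 0.458).

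Other tendon and ligament genes gave a list of 23, of which 18 were tested. The list was chosen with earlier results of these data known. Col3a1, Fmod, Col14a1, Bgn, Col5a1 and Comp were selected by the study in its DMM time course. The counts for DMM are thus not independent evidence. At 4 weeks 13 of the 18 were higher in DMM and none lower, where 12.4% of all probe sets were called higher and 6.67% lower. Their median difference was 1.06 beside -0.015 over all probe sets tested. Col3a1, a fibril collagen of repair tissue, was higher by 0.61 ± 0.20 (adjusted p = 0.0336). The brightest genes, Col1a2 (-0.03 ± 0.10) and the small proteoglycan Dcn (0.19 ± 0.12), did not pass. At 2 weeks 3 were higher, at 8 weeks none, and at 16 weeks 3, Col3a1 among them at 1.31 ± 0.20 (adjusted p = 0.0055). Of all probe sets, 1.62% were called higher at 2 weeks, 0.00443% were called at 8 weeks and 0.0621% at 16 weeks. Over the average 15 of the 18 were higher, against 11.0% of all probe sets. In sham joints at 16 weeks 10 of the 18 were below time 0 (4.47% of all probe sets), and all 18 were below sham at 2 weeks (15.3%).

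**Figure D5:**
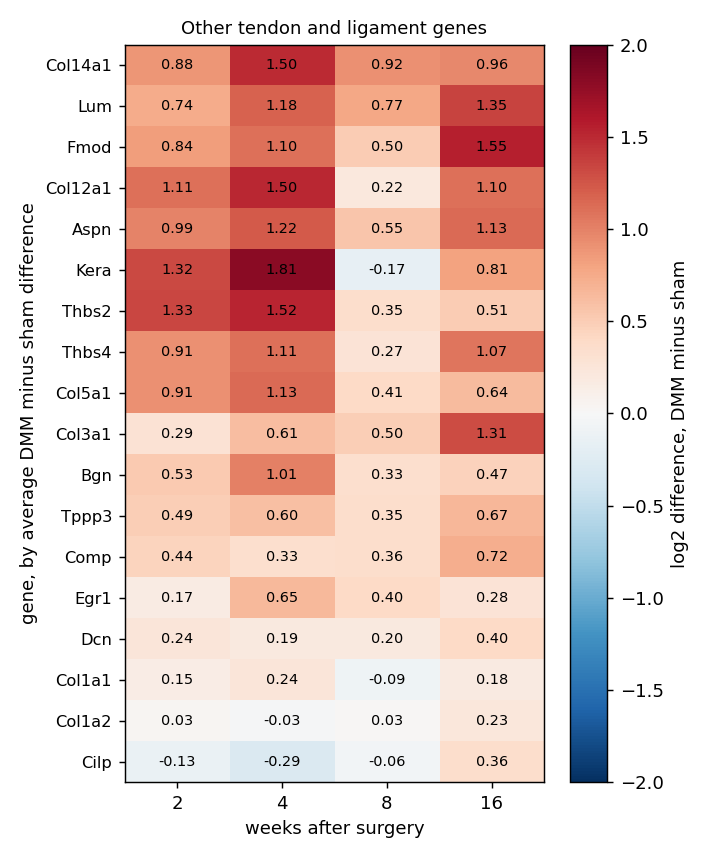
Log2 difference of DMM minus sham (colour and printed value) for the 18 tested genes of the tendon and ligament list (rows, ordered by their average difference) at 2, 4, 8 and 16 weeks (columns). In the 4-week column Kera is highest at 1.81 and Cilp lowest at -0.29.

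Of 14 tested receptors and binding partners of the matrix proteins, 9 were higher in DMM at 4 weeks and none lower, at a median of 0.50. Of all probe sets 12.4% were called higher there and 6.67% lower. Fibronectin (Fn1) was higher by 0.51 ± 0.16 (adjusted p = 0.027), Ccdc80 by 0.58 ± 0.16 (adjusted p = 0.0147) and the integrin chain Itgav by 0.57 ± 0.14 (adjusted p = 0.00869). At 2 weeks 1 was higher and 1 lower, beside 1.62% and 0.807% of all probe sets. Of 14 tested TGF beta pathway genes 10 were higher at 4 weeks and none lower, at a median of 0.35 and beside the same 12.4% and 6.67%. The receptor Tgfbr2 was higher by 0.33 ± 0.11 (adjusted p = 0.0426) and Smad4, the shared signal carrier, by 0.23 ± 0.07 (adjusted p = 0.035). The co-receptor Tgfbr3 did not pass (0.27 ± 0.12, adjusted p = 0.11). Between DMM and sham, neither list had a gene called at 8 or 16 weeks, when 0.00443% and 0.0621% of all probe sets were. Both lists were chosen with earlier results of these data known. Egfr, Sdc4 and Bmp1 of the former and Tgfb2 and Tgfb3 of the latter were selected by the study in its DMM time course. These counts are thus not independent evidence.

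Marker lists of other cell types also differed between groups, in both directions. For scale, 12.4% of all probe sets were called higher in DMM at 4 weeks and 6.67% lower, and 5.76% were called lower on average. In sham at 16 weeks 4.47% were called lower than at time 0 and 15.3% lower than at 2 weeks. Of 6 synovial lining and fibroblast genes, 4 were higher in DMM at 4 weeks, and their mean log2 was 10.83 to 11.54 in DMM pools and 10.04 to 10.47 in sham pools. All 6 were lower in sham at 16 weeks than at 2 weeks. Of 5 tested endothelial genes, 4 were higher at 4 weeks. Of 11 tested chondrocyte genes 1 was higher in DMM at 4 weeks and 2 lower, and of 6 osteoblast genes 2 were higher. None of 4 erythroid genes was called there. Over the 26 arrays, the synovial list correlated with Tnmd at r = 0.92, Postn at 0.91 and Tnxb at 0.55, as a description of pools that share groups. The endothelial list gave 0.84, 0.90 and 0.56 for these genes in turn. Tnc (0.92) and Mkx (0.88) were highest with the endothelial list, and Tnxb with the osteoblast list (0.75). The erythroid list ran against all 8 genes, from r = -0.79 for Tgfbi to -0.54 for Tnxb. The muscle and neutrophil lists also had a negative r with all 8. Of 4 adipocyte genes, 3 were lower in DMM at 4 weeks and all 4 on average, with pools at 9.70 to 9.99 in DMM and 10.44 to 10.52 in sham at 4 weeks. In sham at 16 weeks 10 of 11 tested chondrocyte genes, all 6 osteoblast genes and 3 of the 4 adipocyte genes were lower than at time 0. Of 6 neutrophil genes 2 and of 6 macrophage genes 1 were lower in DMM at 4 weeks. With lists this short and 6.67% of all probe sets lower, these 2 counts are not read as results. The part of these cell types in the results was not tested. Markers of the labelled cartilage and bone were present throughout, with group means from 10.05 to 11.80 for the chondrocyte list and from 10.24 to 11.26 for the osteoblast list.

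The members also resembled each other and further genes across the pools. Tnmd and Tnn correlated at r = 0.93 over 26 arrays and at 0.63 once group means were removed. Tnc and Postn gave 0.94 and 0.72, and Tnn with Tnxb gave 0.28 and -0.03. Among 11505 other genes, the nearest to Tnmd were Cpxm2 (r = 0.98) and Fndc1 (0.97), and the nearest to Postn were Col5a1 (0.98), a fibril collagen chain, and Itm2a (0.97). Tnc was nearest to Gask1b and Tspan6, Tnn to P2ry10b and Lrrc15, and Scx to Layn and Rgl1. Mkx was nearest to Dynlt3 and Msrb3, Tgfbi to Cd44 and 1600012H06Rik, and Tnxb to Itih5 (0.90) and Pcsk6 (0.85). The arrays share groups, so these values are descriptions.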

How the data were processed

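RNA from 26 pools was hybridised to Affymetrix mouse expression arrays. The authors normalized the signals by systematic variation normalization and deposited log2 signals, which were used unchanged. Array medians ran from 7.90 to 7.95. The number of arrays limits the precision. Probe sets were named from the platform annotation updated through Entrez identifiers, with 34958 carrying 1 symbol, 932 several and 9211 none. A limma 3.58.1 fit in R 4.3.3 had 1 coefficient per group (9 groups, 17 residual and 3.55 prior degrees of freedom). The 22550 probe sets with a mean log2 above 7.93 were tested, two-sided, with Benjamini-Hochberg adjustment over all of them. The 8 genes, the gene lists and the tests were chosen with earlier results of these data known. All 8 genes are described with each probe set. Of each pathway list the 3 brightest genes are named, and for each member the 2 genes of highest Pearson correlation. In a fit of simulated data for DMM against sham at 4 weeks over 22550 probe sets, 71.6% of changes of 0.5, 95.5% of changes of 1 and 98.5% of changes of 2 on the log2 scale were recovered. Pools are biological replicates of 3 mice each. Deviations of same-numbered DMM and sham pools correlated at r = 0.475, 0.325 and 0.556 at 8 weeks, and from -0.19 to 0.33 at the other times. This is no more than a hint from the data, since the study paired pools at random. Promoter sequences are from RefSeq (GRCm38.p6). Alternatives were no brightness filter, fitting the compared groups only, array weights, a replicate block, quantile normalization, a muscle score as covariate, the mean of a gene's probe sets and leaving out each pool. Gene-by-gene array weights and the block within the 8-week groups were added after results had been seen.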

Additional observations from a re-analysis of the deposited data

Results flagged for a closer look

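The course in sham joints differed between 2 and 16 weeks, by the test of that difference, for 6 of the 7 tested genes. The 16-week value minus the 2-week value was -2.28 for Tnmd, -0.36 for Scx, -0.79 for Tnc, -0.57 for Tnn, -1.09 for Tnxb and -2.93 for Postn. Mkx, below the brightness filter, gave -0.51 in the fit of all probe sets (adjusted p = 0.0126). Tnn was called in that fit as well.

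Several effects pointed one way in every pool at 1 time and the other way in every pool at another time, and these differences were not tested. Signs were taken against the mean of the control pools. The share of all probe sets that meet this rule was not counted, so the values are descriptions. Relative to time 0, sham Mkx was 0.19 in the second week against -0.16 in the fourth and -0.053 in the eighth. Sham Tnxb was 0.44 at 2 weeks and -0.19 at 8 weeks. Sham Postn was 1.60 in the second week and 0.19 in the fourth, against -1.07 in the eighth, and its fourth-week value was also opposite to the -1.33 of the last time point. Relative to the mean of the sham pools, DMM Tgfbi was 0.67 at 2 weeks and -0.24 at 8 weeks. The pools overlapped the control pools for Mkx and Tnxb each time, for Postn at 4 weeks and for Tgfbi at 8 weeks. For Mkx the SE of each sham difference was 0.14.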

How the results depend on the processing

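Of 67 single differences with an unadjusted p under 0.05, none changed sign in 1059 values under the alternatives, of which 937 kept their side of the threshold, 52 lost it and 70 gained it. Among the 69 other differences, 99 of 1058 values had the other sign and 0 of those were called.

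Array weights were run in 2 ways. The planned default of limma stopped before it converged and gave sham 2-week replicate 2 a weight of 5.08e-05, so the gene-by-gene method, which gave that pool 4.73, was added after the default's counts had been seen, and both are given. In the order default then gene by gene, they called 1 and 1 genes for DMM against sham at 2 weeks (2 in the fit as reported), 3 and 1 at 8 weeks (0) and 3 and 2 at 16 weeks (0). For sham against time 0 they called 0 and 6 at 2 weeks (2), so that this count rests on the method, and 5 and 3 at 8 weeks (0). For DMM against time 0 they called 5 and 5 at 4 weeks (3), 2 and 2 at 8 weeks (0) and 1 and 1 at 16 weeks (0), and for the DMM effect at 4 weeks 5 and 5 minus 8 weeks (0) and 3 and 1 minus 16 weeks (0). Tnn was the only gene called under either for DMM against sham at 2 weeks. Gene by gene it was also the only 1 at 8 weeks and for 4 minus 16 weeks. Over all probe sets, DMM against sham at 8 weeks gave 2406 and 832 calls against 1, and sham at 2 weeks against time 0 gave 0 and 7308 against 373. For DMM at 4 weeks against time 0 these weights called 43.4% and 31.6% of all probe sets, against 8.18%. For DMM against sham at 2 weeks they called 0.00443% and 0.612%, against 2.43%.

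Fitting the compared groups only gave 0 members for DMM against sham at 2 weeks (0 of all probe sets against 548) and 1 at 16 weeks (0.0931% of all probe sets). It gave 0 for sham at 2 weeks against time 0 (0%) and 1 for DMM at 8 weeks against time 0 (1.47%). The muscle covariate gave 2 for DMM against sham at 16 weeks (0.94% of all probe sets) and 2 for 4 minus 8 weeks (14.4%). The replicate block over all groups moved no count of members by over 1.5 times. For DMM against sham it gave 2 at 2 weeks and 4 at 4 weeks, with 1.47% and 21.3% of all probe sets. Within the 8-week groups the block gave 2, Tnn among them, with 0.86% of all probe sets. For same-numbered pools r ran from -0.19 to 0.33 at the other times and from 0.325 to 0.556 at 8 weeks, so the ranges touch. Pools of different number were not compared. The cause of each shift was not tested.

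Leaving out each pool in turn gave 0 to 4 genes for DMM against sham at 2 weeks, 3 to 5 at 4 weeks and 0 to 0 at 8 and 16 weeks. For sham against time 0 it gave 0 to 6 at 2 weeks, 0 to 0 at 4 and 8 weeks and 1 to 3 at 16 weeks. For DMM against time 0 it gave 4 to 6, 3 to 4, 0 to 0 and 0 to 0. It gave 4 to 6 for the average, 0 to 3 for 4 minus 8 weeks, 0 to 0 for 4 minus 2 and 4 minus 16 weeks, and 4 to 7 for sham at 16 against 2 weeks. Of all 22550 probe sets tested, those called ran from 1575 to 5536, 0 to 536 and 5 to 15 for DMM against sham at 4, 8 and 16 weeks. For sham against time 0 they ran from 2 to 3272, 1 to 264, 14 to 198 and 455 to 1142. For DMM against time 0 at 4, 8 and 16 weeks they ran from 660 to 2954, 74 to 147 and 191 to 271. For the average they ran from 3019 to 4681, and for sham at 16 against 2 weeks from 3440 to 8977. For DMM at 2 weeks against time 0, leaving out a time 0 pool gave 4610 to 6305. Where DMM at 2 weeks is left with 1 pool, that pool is assumed to vary like the other groups. For 4 minus 8 weeks the count of members was 3 without DMM 4-week replicate 1 and 1 without sham 8-week replicate 1, with 12.6% and 16.1% of all probe sets.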
